A study of Homo sapiens with 76 samples.

Results

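AEN, EI24, TP53I3, TRIAP1 and RPS27L, 5 of the 61 genes measured, were chosen because p53 is known to activate them and because their products are known to act on cell death or on survival and feedback. AEN, EI24 and TP53I3 stand on the death side, and TRIAP1 and RPS27L on the side of survival and feedback. The choice used known function and no measured value, but earlier results of these data were known when it was made. All 5 genes gave a quantification cycle (Cq) in each of the 76 samples.

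TK6, a line of human B lymphoblastoid cells in which p53 is functional, was used throughout. The labels give 4 h for all 29 treatments, which is the length of exposure to the chemical agents. Heat shock was shorter by the study's own list, and for gamma ray only the dose is given. Of the 29 treatments, 14 induce DNA damage (DDI) and 15 do not (non-DDI). Each treatment and each of 9 vehicle conditions had 2 replicates from separate exposures. The mRNA was measured by TaqMan RT-qPCR on custom array plates, and 1 assay per gene was analysed. The study compared the treatments with their vehicles so that agents could be told apart by class, and the genes of the panel had been picked in earlier work on the same agents.

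The DDI agents dissolved in H2O were K2CrO4 at 100 µM, CdCl2 at 50 µM, bleomycin at 10 µg/ml, AraC at 50 µM, hydroxyurea at 0.5 mM and H2O2 at 80 µM. NaAsO2 at 20 µM had an H2O vehicle of its own. In DMSO were camptothecin at 125 nM, etoposide at 200 nM, 5-FU at 25 µg/ml and cisplatin at 80 µM. MMS at 40 µg/ml was set against a MeOH vehicle, MTX at 100 µM against NaOH, and gamma ray at 4 Gy against medium. The non-DDI treatments were 2-DG at 20 µM in H2O, docetaxel and paclitaxel at 50 nM, vinblastine at 200 ng/ml, TSA at 20 ng/ml, apicidin at 1 µg/ml and oxamflatin at 1 µM in DMSO, and heat shock at 47 °C with EtOH at 2% and 4% against medium. Colchicine at 250 ng/ml, antimycin A at 100 µM and tunicamycin at 2.5 µg/ml were in EtOH, HC Toxin at 20 ng/ml in MeOH and thapsigargin at 250 nM in acetonitrile. The doses follow the sample labels and differ in unit, so values of different agents stand side by side at the dose used and are no comparison of potency.

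The protein p53 is a transcription factor that is kept low by MDM2 in undisturbed cells and accumulates after DNA damage. It binds pairs of a short palindromic half-site and turns on genes that halt the cell cycle, repair DNA or start apoptosis, together with genes that restrain the same response. AEN encodes a nuclear exonuclease that takes part in DNA fragmentation, and EI24 a membrane protein of the endoplasmic reticulum linked to apoptosis and autophagy. TP53I3, also called PIG3, encodes a quinone oxidoreductase linked to reactive oxygen species. TRIAP1 encodes a small mitochondrial protein that restrains the apoptosome and takes part in lipid transfer. RPS27L encodes a relative of ribosomal protein S27 that acts on MDM2 and p53 levels.

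The promoters of the 5 genes were read because p53 is the factor they have in common. The window ran from 250 bases before the start of each gene to 50 bases after it, in the RefSeq sequences of GRCh38.p14, and 5 of 5 genes were matched. The p53 half-site of 10 bases, which reads the same on both strands in its degenerate form, was found in 3 of the 5 windows and in 2329 of 35116 promoters of the same length (6.63%). The stretches that hold it are shown 5′ to 3′ on the strand of the gene, with the half-site in capitals and up to 30 bases on either side. The first lies at chr15:88621276-88621339 (+ strand), the next at chr11:125569437-125569476 (+ strand) and the last at chr15:63157497-63157566 (− strand).
AEN: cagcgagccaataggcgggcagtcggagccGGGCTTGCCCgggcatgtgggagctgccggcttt
EI24: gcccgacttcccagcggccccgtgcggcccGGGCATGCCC
RPS27L: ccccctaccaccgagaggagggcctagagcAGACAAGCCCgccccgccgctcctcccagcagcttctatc
The match in AEN lay 34 to 25 bases before the start, that in EI24 10 to 1 bases before it, and that in RPS27L 59 to 50 bases before it. The windows of TP53I3, on chromosome 2, and of TRIAP1, on chromosome 12, held no match to these letters. A match is a description of the sequence and no measured binding, and the windows leave out introns and distant sites.

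Each level is the mean Cq of HPRT1 and GUSB minus the Cq of the gene, on the log2 scale, so that a higher value means more transcript. Levels of different genes come from different assays and were not compared. RPS27L was read at a mean Cq of 23.5, TRIAP1 at 24.7, EI24 at 24.8, AEN at 24.9 and TP53I3 at 30.5. The SD between replicates of a condition was 0.18 cycles for AEN, 0.20 for EI24, 0.24 for TRIAP1, 0.23 for RPS27L and 0.35 for TP53I3, against a median of 0.20 over the 61 genes. TP53I3 was therefore both the latest to amplify and the least repeatable of the 5. TNFRSF17, a marker of the B lineage, was read in all samples at Cq 26.9 to 30.1.

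Some Cq values were identical in different samples. The EtOH and acetonitrile vehicles shared 50 of 61 Cq values in both replicates, including those of AEN, EI24, TP53I3 and RPS27L, so that the levels of these 4 genes in those vehicles differ only through HPRT1 and GUSB. The MeOH vehicle shared 19 values with each of them in replicate 1, TP53I3 and RPS27L among them. Cisplatin and colchicine shared 12 values in replicate 1, again with TP53I3 and RPS27L, and the DMSO and medium vehicles shared 11 in replicate 2, with TRIAP1. Over 1406 pairs of samples with the same replicate number the median was 0 shared values, and no other pair shared more than 4.

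The vehicles set the zero of each comparison, and they were not alike. In the H2O vehicle TRIAP1 stood at −2.26 and −2.56, whereas the DMSO vehicle read −1.21 and −1.32. EI24 stood at −1.91 and −2.06 in H2O and at −1.21 in both DMSO samples, and AEN at −2.08 and −2.31 against −1.37 and −1.63. RPS27L was less even, at −0.86 and −0.30 in H2O and −0.05 and 0.23 in DMSO, and TP53I3 read −7.66 and −7.37 against −7.21 and −6.92. In each of the 5 genes both H2O samples lay below both DMSO samples, as they did in 68.9% of the panel.

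Set against the mean of the 8 other vehicles, the H2O vehicle was lower in TRIAP1 by 1.12 (SE 0.18, adjusted p = 5.8e-07, limma), in EI24 by 0.74 (SE 0.15, adjusted p = 2.4e-05), in AEN by 0.64 (SE 0.14, adjusted p = 8.6e-05) and in RPS27L by 0.55 (SE 0.17, adjusted p = 0.0049). TP53I3 differed by −0.06 (SE 0.25, adjusted p = 0.83). The 8 others include the H2O vehicle of NaAsO2. Some of them share Cq values, which the SE and p values do not allow for. Of the panel, 55.7% of genes were lower and 14.8% higher in the H2O vehicle, so most of the array shared the direction. Taking the median panel gene as reference instead of HPRT1 and GUSB, the difference was −0.04 in AEN, −0.14 in EI24 and 0.06 in RPS27L, none of them called. TRIAP1 kept its call with that reference (−0.51, adjusted p = 0.0074), and TP53I3 read 0.55 (adjusted p = 0.060). Without replicate 1 of the H2O vehicle, RPS27L differed by −0.27 (adjusted p = 0.34).

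**Figure D1:**
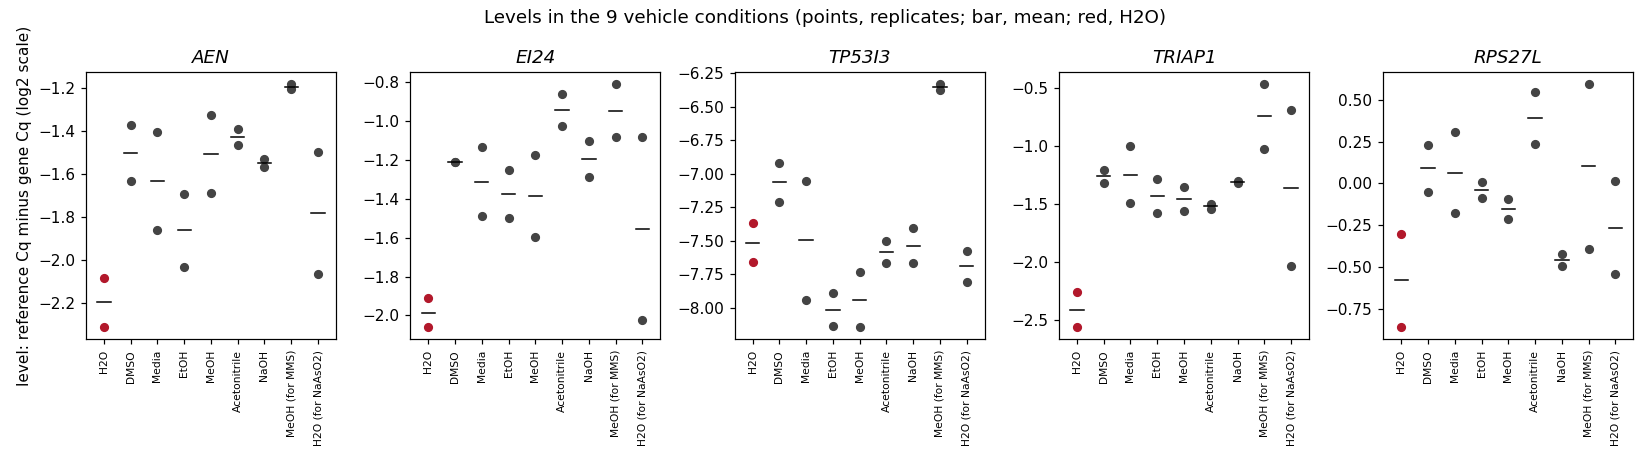
Level (mean Cq of HPRT1 and GUSB minus Cq of the gene, log2 scale) in the 9 vehicle conditions, 1 panel per gene. Points are the 2 replicates, the bar is their mean, and the H2O vehicle of 7 treatments is red. AEN, EI24, TRIAP1 and RPS27L have their lowest mean in H2O, and both replicates of TP53I3 in H2O lie within the range of the other vehicles.

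The vehicle of NaAsO2 was also H2O but had its own samples, and its replicates lay far apart. TRIAP1 read −2.04 and −0.69 there and EI24 −2.02 and −1.08, while AEN read −2.06 and −1.50. The MeOH vehicle of MMS gave 0.59 and −0.39 for RPS27L. These gaps between vehicle replicates exceeded the mean change of TRIAP1 and EI24 with NaAsO2 and of RPS27L with MMS.

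In the 14 DDI treatments the 5 genes rose together or did not pass the test, and none fell. At an adjusted p under 0.05 (limma, Benjamini-Hochberg over 61 genes within a treatment), 50 of 70 pairs of gene and treatment were higher than the vehicle and 0 were lower, against 46.5% higher and 14.9% lower over the whole panel. AEN rose in 13 of 14 DDI treatments, TRIAP1 in 12, TP53I3 in 9, EI24 in 8 and RPS27L in 8, and the median gene of the panel rose in 8. Counts for EI24 and RPS27L therefore equal that of the median gene. The panel was picked to separate these agents, so the counts are no independent evidence of direction. RNA came from whole cultures, in which more responding cells and more transcript per cell cannot be told apart.

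**Figure D2:**
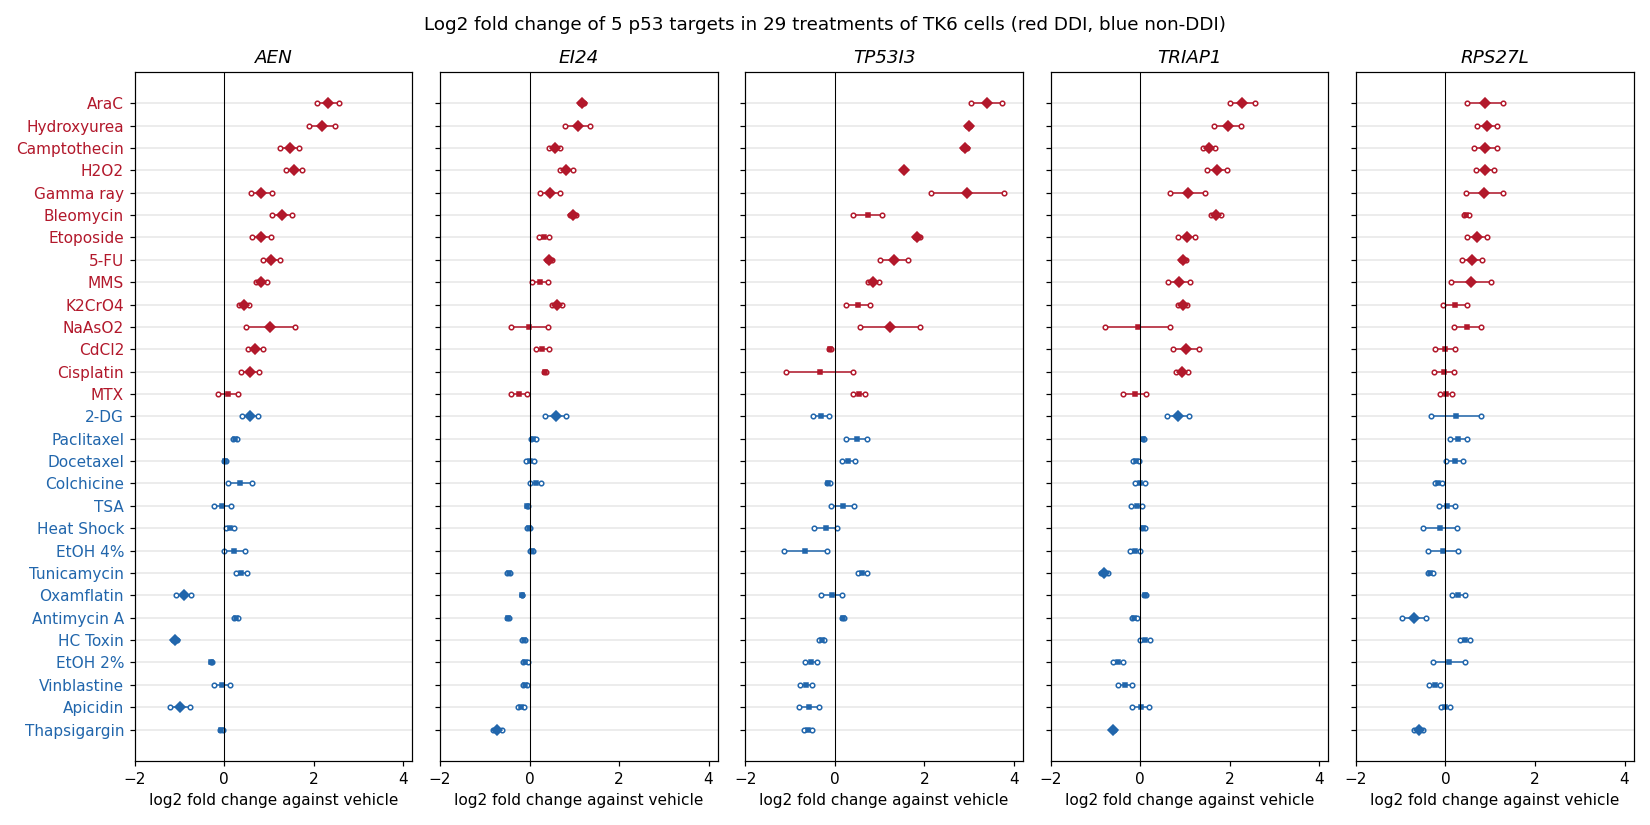
Log2 fold change against the own vehicle in the 29 treatments (rows), 1 panel per gene, DDI in red and non-DDI in blue. Open circles are the 2 replicates set against the vehicle replicate of the same number, and filled symbols their mean, a diamond where the adjusted p was under 0.05 and a square elsewhere. AraC and hydroxyurea, set against the H2O vehicle, lead in most panels, and TP53I3 reaches 3.39. The blue rows hold 3 diamonds to the right of 0 and 8 to the left.

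AEN, the exonuclease of the death side, rose most with AraC, a nucleoside analogue that stops DNA synthesis. The vehicle samples read −2.08 and −2.31 and the AraC samples −0.01 and 0.24, a log2 fold change of 2.31 (SE 0.18, adjusted p = 5.9e-15), or 4.97-fold. Hydroxyurea, which blocks ribonucleotide reductase, gave −0.18 and 0.17, a change of 2.19 (adjusted p = 3.8e-14). H2O2 followed with samples at −0.70 and −0.56 and a change of 1.56 (adjusted p = 7.9e-10). Treated samples lay above both vehicle samples in each of the 3, as in 56.3% of the DDI pairs of gene and treatment over the panel.

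Outside H2O, AEN rose by 1.46 with camptothecin, a poison of topoisomerase I (−0.13 and 0.05 against −1.37 and −1.63 in DMSO). The change was 1.04 with 5-FU and 0.83 each with etoposide, MMS and gamma ray, and 0.57 with cisplatin. Bleomycin stood at 1.29, NaAsO2 at 1.02, CdCl2 at 0.70 and K2CrO4 at 0.43 (adjusted p = 0.048). The call of K2CrO4 was lost whichever of its 4 samples was left out (adjusted p = 0.056 to 0.26). The 2 replicates of NaAsO2 were 1.57 and 0.47, and cisplatin was no longer called without its replicate 2 (0.50, adjusted p = 0.068) or without replicate 2 of the DMSO vehicle (0.44, adjusted p = 0.11). MTX, an inhibitor of folate metabolism, was the only DDI agent in which AEN did not pass, at 0.09 (adjusted p = 0.97), and there 1 gene of the panel was higher (1.64%).

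TP53I3, the oxidoreductase, had the widest range of the 5. AraC took it from −7.66 and −7.37 to −3.92 and −4.33, a log2 fold change of 3.39 (SE 0.34, adjusted p = 3.9e-12), or 10.5-fold. Hydroxyurea gave −4.70 and −4.36 from the same vehicle, a change of 2.99 (adjusted p = 1.2e-10). Gamma ray gave −4.17 and −4.91 against −7.94 and −7.05 in medium, a change of 2.96 (adjusted p = 5.9e-10), and camptothecin −4.35 and −3.97 against −7.21 and −6.92, a change of 2.90 (adjusted p = 4.3e-10). In these 4 treatments the lowest treated sample stood above the highest vehicle sample by more than the spread within either group.

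Further down the order, TP53I3 rose by 1.84 with etoposide, a poison of topoisomerase II, by 1.53 with H2O2, by 1.32 with 5-FU and by 1.23 with NaAsO2. With MMS, an alkylating agent, it rose by 0.86 (adjusted p = 0.027), but the call was lost whichever of the 4 samples was left out (adjusted p = 0.053 to 0.11). NaAsO2 lost its call without treated replicate 1 (0.67, adjusted p = 0.15). Bleomycin stood at 0.73 (adjusted p = 0.055), MTX at 0.54, K2CrO4 at 0.52 and CdCl2 at −0.11, none of them called.

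Cisplatin, which cross-links DNA, gave TP53I3 samples at −8.30 and −6.51, one below and one above both DMSO samples, and a mean change of −0.34 (adjusted p = 0.46). The Cq of replicate 1 was among those identical to colchicine's. Without that replicate the change was 0.56 (adjusted p = 0.17), and without replicate 2 it was −1.24 (adjusted p = 0.0025).

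EI24, the protein of the endoplasmic reticulum, changed less. AraC took it from −1.91 and −2.06 to −0.79 and −0.83, a log2 fold change of 1.17 (SE 0.20, adjusted p = 7.6e-07), or 2.25-fold. Hydroxyurea stood at 1.08, bleomycin at 0.97, H2O2 at 0.82 and K2CrO4 at 0.61, all set against the H2O vehicle. Outside that vehicle EI24 rose by 0.56 with camptothecin (−0.77 and −0.52 against −1.21 in both DMSO samples), by 0.46 with gamma ray (adjusted p = 0.036) and by 0.44 with 5-FU (adjusted p = 0.047). Cisplatin (0.34), etoposide (0.32), CdCl2 (0.29), MMS (0.24), NaAsO2 (−0.005) and MTX (−0.23) did not pass. With the replicate number as a block, cisplatin (adjusted p = 0.041) and etoposide (adjusted p = 0.047) did. Treated samples lay above both vehicle samples in 12 of 14 DDI treatments, against 56.3% of the pairs of gene and treatment over the panel.

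The 8 calls of EI24 were not steady. With 1 sample left out at a time, 5-FU lost its call in 4 of 4 fits (adjusted p = 0.074 to 0.19), gamma ray in 3, K2CrO4 in 2 and camptothecin in 1, and the count was 4 without treated replicate 2. With the median panel gene as reference it was 0, and that scale lies 0.44 lower over the DDI treatments.

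On the side of survival, TRIAP1 rose in 12 of 14 DDI treatments. AraC gave −0.26 and −0.005 against −2.26 and −2.56, a log2 fold change of 2.28 (SE 0.23, adjusted p = 9.2e-12), or 4.85-fold. Hydroxyurea gave −0.60 and −0.31, a change of 1.95 (adjusted p = 5.5e-10), and H2O2 −0.78 and −0.61, a change of 1.72 (adjusted p = 2.2e-08). Treated samples stood above both vehicle samples in each of the 3, as in all 12 treatments called. Over the panel they did so in 56.3% of the DDI pairs of gene and treatment.

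Bleomycin raised TRIAP1 by 1.70 and camptothecin by 1.54, the latter from the DMSO level to 0.19 and 0.36. The other called changes were narrow in range, between 0.88 with MMS and 1.06 with gamma ray, and took in etoposide (1.03), CdCl2 (1.03), 5-FU (0.96), K2CrO4 (0.95) and cisplatin (0.94). Cisplatin thus had TRIAP1 and AEN called, and EI24, TP53I3 and RPS27L not, where 34.4% of the panel was higher. MMS lost its TRIAP1 call without vehicle replicate 1 (0.60, adjusted p = 0.075). MTX stood at −0.12 and NaAsO2 at −0.06.

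NaAsO2 set the genes apart from one another. AEN and TP53I3 rose, with 57.4% of the panel higher, while TRIAP1 samples at −1.36 and −1.48 lay between vehicle samples at −2.04 and −0.69. The sign of TRIAP1 followed the vehicle sample kept. It was −0.73 (adjusted p = 0.0060) without vehicle replicate 1 and 0.62 (adjusted p = 0.013) without vehicle replicate 2. EI24 did the same at −0.48 (adjusted p = 0.047) and 0.47 (adjusted p = 0.038).

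RPS27L, the ribosomal protein relative, had the smallest maximum of the 5, while EI24 had the smaller mean over the DDI treatments (0.50 against 0.53). Hydroxyurea gave 0.28 and 0.41 against −0.86 and −0.30, a log2 fold change of 0.93 (SE 0.23, adjusted p = 0.00033), or 1.90-fold. Camptothecin gave 1.09 and 0.86 against −0.05 and 0.23, a change of 0.89 (adjusted p = 0.00075), and AraC 0.42 and 0.18, a change of 0.88 (adjusted p = 0.00057). All of these treated samples lay above both of their vehicle samples, as in 56.3% of the DDI pairs of gene and treatment over the panel. H2O2 (0.88), gamma ray (0.86), etoposide (0.71), 5-FU (0.60) and MMS (0.57) were also called. Etoposide and 5-FU each lost the call in 2 of the 4 fits that left out 1 sample (adjusted p up to 0.084 and 0.17), and MMS in 3. MMS rested on a vehicle pair at 0.59 and −0.39, and without the second of these the change was 0.08 (adjusted p = 0.81).

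Not called for RPS27L were NaAsO2 at 0.49 (adjusted p = 0.059), bleomycin at 0.46 (adjusted p = 0.075), K2CrO4 at 0.22, MTX at 0.02, CdCl2 at −0.01 and cisplatin at −0.04. The cisplatin samples read −0.31 and 0.41 around the DMSO pair, and the first has the Cq found in colchicine too. With the panel median as reference, RPS27L was called in 1 DDI treatment instead of 8.

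Treatments that raised all 5 genes were AraC, hydroxyurea, H2O2, camptothecin, 5-FU and gamma ray, 6 of 14. Over the panel, 65.6% of genes were higher with AraC, 67.2% with hydroxyurea, 55.7% with H2O2, 57.4% with camptothecin, 54.1% with 5-FU and 52.5% with gamma ray. Etoposide (49.2%) and MMS (42.6%) had 4 genes called, each without EI24. Bleomycin (50.8%) and K2CrO4 (39.3%) had 3, the same trio of AEN, EI24 and TRIAP1, while TP53I3 and RPS27L did not pass. CdCl2 had AEN and TRIAP1, with 23.0% of the panel higher and 31.1% lower, and MTX none. No treatment of either class called genes of this group in opposite directions.

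Most neighbours in the order of the DDI treatments were not separated beyond their spread. For AEN, 11 of the 13 neighbours overlapped in their replicate values, and those that did not were hydroxyurea and H2O2, and K2CrO4 and MTX. The last pair stood apart by less than the SD between replicates (K2CrO4 down to 0.32, MTX up to 0.30). In TP53I3 9 of 13 overlapped, and those that did not were AraC and hydroxyurea (AraC down to 3.04, hydroxyurea up to 3.01, again less than the SD), camptothecin and etoposide, etoposide and H2O2, and K2CrO4 and CdCl2. EI24 had 12 of 13 overlapping, and TRIAP1 and RPS27L 13 of 13.

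The agents in H2O were also set against the 8 other vehicles. TP53I3 hardly moved, with AraC at 3.34, hydroxyurea at 2.93 and H2O2 at 1.48, and bleomycin passed at 0.68 (adjusted p = 0.023). AEN stayed called with AraC (1.67), hydroxyurea (1.55), H2O2 (0.92) and bleomycin (0.66), but with CdCl2 it came to 0.06 (adjusted p = 0.71) and with K2CrO4 to −0.21 (adjusted p = 0.39). TRIAP1 kept AraC (1.16), hydroxyurea (0.84), H2O2 (0.60) and bleomycin (0.58), and K2CrO4 (−0.16) and CdCl2 (−0.09) changed sign. The lead of the agents in H2O was thus partly lost. Camptothecin against DMSO stood above AraC in TRIAP1 (1.54) and above H2O2 in AEN (1.46). AraC stayed above camptothecin in AEN and in TP53I3 (2.905).

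For the other genes fewer calls were left. EI24 passed with AraC (0.43, adjusted p = 0.0075) and hydroxyurea (0.33, adjusted p = 0.035), no longer with bleomycin (0.23) or H2O2 (0.08), and with CdCl2 it fell by 0.46 (adjusted p = 0.0052). RPS27L passed with hydroxyurea (0.38, adjusted p = 0.039), missed with AraC (0.34, adjusted p = 0.064) and H2O2 (0.33, adjusted p = 0.082), and fell by 0.55 with CdCl2 (adjusted p = 0.0040). Over all DDI treatments this reference gave 42 calls higher and 2 lower. Camptothecin against DMSO (0.565 in EI24, 0.885 in RPS27L) then stood above both AraC and hydroxyurea in these genes.

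**Figure D3:**
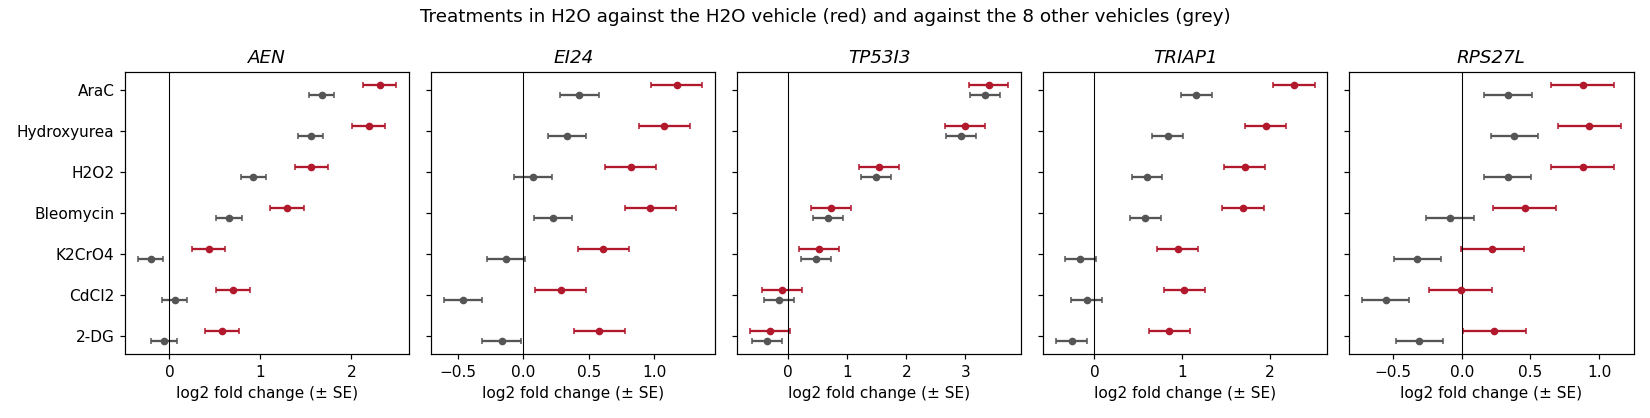
Log2 fold change ± SE of the 7 treatments dissolved in H2O, against the H2O vehicle (red) and against the mean of the 8 other vehicles (grey), 1 panel per gene. The grey points of K2CrO4, CdCl2 and 2-DG lie near or below 0 in AEN, EI24, TRIAP1 and RPS27L, while in TP53I3 both references give close values.

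In the 15 non-DDI treatments, 3 of 75 pairs of gene and treatment were higher than the vehicle and 8 were lower, against 14.2% higher and 12.1% lower over the panel. All 3 higher calls came from 2-DG, an inhibitor of glycolysis, with 36.1% of the panel higher. AEN gave −1.68 and −1.55, a log2 fold change of 0.58 (adjusted p = 0.0074), EI24 −1.56 and −1.25, a change of 0.58 (adjusted p = 0.011), and TRIAP1 −1.65 and −1.46, a change of 0.85 (adjusted p = 0.0025). Both treated samples lay above the H2O vehicle in each of these genes, as in 28.0% of the non-DDI pairs of gene and treatment over the panel. Against the 8 other vehicles the changes were −0.06, −0.16 and −0.26, none of them called. AEN and EI24 each lost the call in 2 of the 4 fits that left out 1 sample (adjusted p up to 0.094 and 0.12). The cause of the low H2O vehicle was not tested. TP53I3 read −0.31 and RPS27L 0.23 with 2-DG.

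AEN fell with 3 of the 4 inhibitors of histone deacetylases. HC Toxin gave −2.83 and −2.38 against −1.69 and −1.32 in MeOH, a log2 fold change of −1.10 (SE 0.18, adjusted p = 2.3e-06), where 19.7% of the panel was lower. Apicidin gave −2.58 and −2.38 against −1.37 and −1.63 in DMSO, a change of −0.98 (adjusted p = 1.7e-05; 23.0% of the panel lower), and oxamflatin −2.44 and −2.38, a change of −0.91 (adjusted p = 6.6e-05; 19.7% lower). Treated and vehicle samples did not overlap, and all 3 calls held in each fit that left out 1 sample. Over the panel, treated samples lay below both vehicle samples in 30.3% of the non-DDI pairs of gene and treatment. TSA stood at −0.04 (adjusted p = 0.99), with −1.59 and −1.49, and 1 gene of the panel was lower with it.

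No other gene of the group passed with these 4 inhibitors, although 21.3% of the panel was higher with apicidin, with oxamflatin and with HC Toxin. EI24 lay between −0.19 and −0.05, TRIAP1 between −0.08 and 0.11, TP53I3 between −0.58 and 0.17, and RPS27L between −0.0025 and 0.44. The largest value, RPS27L with HC Toxin, had samples at 0.24 and 0.33 against −0.09 and −0.21 and did not pass (adjusted p = 0.13), and the Cq of vehicle replicate 1 was found also in the EtOH and acetonitrile vehicles. The differences between AEN and the other genes were not tested.

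The agents that act on the endoplasmic reticulum and on mitochondria gave the other lower calls. Thapsigargin, which empties calcium stores, gave a log2 fold change of −0.72 in EI24 (−1.68 and −1.65 against −0.86 and −1.02, adjusted p = 0.0023), of −0.61 in TRIAP1 (adjusted p = 0.032) and of −0.60 in RPS27L (−0.15 and −0.27 against 0.55 and 0.23, adjusted p = 0.031), with 34.4% of the panel lower. Against the EtOH vehicle, which has the same Cq for EI24 and RPS27L as the acetonitrile vehicle, the changes were −0.29 (adjusted p = 0.28) in EI24 and −0.17 (adjusted p = 0.61) in RPS27L, and in TRIAP1 −0.69 (adjusted p = 0.020). With 1 of the 4 samples left out, EI24 kept its call, TRIAP1 lost it each time (adjusted p = 0.079 to 0.13) and RPS27L in 3 of 4 fits (adjusted p up to 0.24). The levels of AEN with thapsigargin, at −1.49 in both samples, gave a change of −0.06. The Cq of AEN is also the same in both vehicles, and the treated samples lay above the EtOH pair at −2.03 and −1.69.

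Tunicamycin, an inhibitor of protein glycosylation, gave a log2 fold change of −0.80 in TRIAP1 (−2.31 and −2.15 against −1.58 and −1.29, adjusted p = 0.0071), where 9.84% of the panel was lower. That call was lost without treated replicate 1 (adjusted p = 0.075) and without vehicle replicate 2 (adjusted p = 0.10). EI24 stood at −0.47 (adjusted p = 0.069, and 0.010 with the replicate number as a block) and RPS27L at −0.34, whereas TP53I3 read 0.61 (adjusted p = 0.22) and AEN 0.38, none called. Antimycin A, an inhibitor of the respiratory chain, gave −0.70 in RPS27L (−0.52 and −0.96 against −0.09 and 0.01, adjusted p = 0.019; 9.84% of the panel lower), with EI24 at −0.48 (adjusted p = 0.056, and 0.0078 with the block). The RPS27L call was lost in 3 of the 4 fits that left out 1 sample (adjusted p up to 0.21), and the EtOH vehicle it rests on has Cq values of RPS27L and EI24 found also in the acetonitrile vehicle. The 2 antimycin A samples of RPS27L were further apart than the vehicle pair, yet both lay below it.

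TP53I3 passed in no non-DDI treatment, and its changes ran from −0.67 with EtOH at 4% through −0.64 with vinblastine and −0.59 with thapsigargin up to 0.61. For TRIAP1 the third lowest value was −0.50 with EtOH at 2% (adjusted p = 0.11, and 0.046 with the block). With the 4 agents that act on microtubules (docetaxel, paclitaxel, vinblastine and colchicine) and with heat shock, no gene of the group passed. Of the panel, 3.28% of genes were higher and 3.28% lower with paclitaxel, 9.84% higher and 8.20% lower with vinblastine, 11.5% higher and 6.56% lower with colchicine, and 3.28% lower with heat shock.

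The classes were compared on the 29 mean profiles. The mean log2 fold change of TP53I3 was 1.46 ± 1.21 (SD, n = 14) over DDI and −0.15 ± 0.42 (SD, n = 15) over non-DDI treatments, a difference of 1.61 (SE 0.31, adjusted p = 5.2e-05, limma). TRIAP1 differed by 1.23 (SE 0.21, adjusted p = 8.6e-06), AEN by 1.17 (SE 0.22, adjusted p = 2.9e-05), EI24 by 0.61 (SE 0.15, adjusted p = 0.00097) and RPS27L by 0.58 (SE 0.15, adjusted p = 0.0012). Higher in DDI were 57.4% of the panel and lower 18.0%. The panel was picked to separate these agents, so the class differences are a description and no independent evidence. By size of difference TP53I3 ranked 6, TRIAP1 10, AEN 14, EI24 29 and RPS27L 32 among 61 genes, so that EI24 and RPS27L stood near the middle.

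Class ranges overlapped in every gene. TRIAP1 lay above its highest non-DDI value, 0.85 with 2-DG, in 12 of 14 DDI treatments, AEN in 11, TP53I3 and RPS27L in 10 and EI24 in 5, against a panel median of 3. That median takes in genes that were lower in DDI, which such a count of higher values does not credit. The lowest DDI value belonged to MTX in AEN, EI24 and TRIAP1 and to cisplatin in TP53I3 and RPS27L. In the latter genes the Cq of cisplatin replicate 1 was found in colchicine too. With the 8 other vehicles as reference for the agents in H2O, the class difference was 1.59 in TP53I3 and 0.94 in AEN. It was 0.83 in TRIAP1, 0.34 in EI24 and 0.38 in RPS27L, and all 5 genes stayed called. Within the 10 DMSO treatments RPS27L differed by 0.44 (adjusted p = 0.066), and with the panel median as reference EI24 differed by 0.10 (adjusted p = 0.41) and RPS27L by 0.07 (adjusted p = 0.68). Whether the class difference itself depended on H2O or DMSO gave an adjusted p of 0.96 for each of the 5 genes, with 0 of 61 genes called and 4 at an unadjusted p under 0.05, and only 1 non-DDI agent was in H2O.

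Across the 29 treatments some of these genes moved closely together. Treatments of 1 solvent share their vehicle samples, so the correlations are a description. EI24 and TRIAP1, one from each side, had the highest Pearson r of the 10 pairs, 0.94 over 29 treatments, 0.95 over the 14 DDI and 0.78 over the 15 non-DDI treatments. TP53I3 and RPS27L had 0.79, 0.90 and 0.05. In both genes cisplatin and colchicine share their Cq of replicate 1, and r without these agents was not computed. AEN and RPS27L had 0.60, 0.76 and −0.40. Each of the 5 genes had a median r of 0.58 to 0.62 with the rest of the panel, so that AEN and RPS27L stood at the usual value of these genes, and the median over the 1830 pairs of panel genes was 0.25. AEN and TP53I3, both of the death side, had 0.79 over the 29 treatments, and so did AEN and TRIAP1, from different sides.

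**Figure D4:**
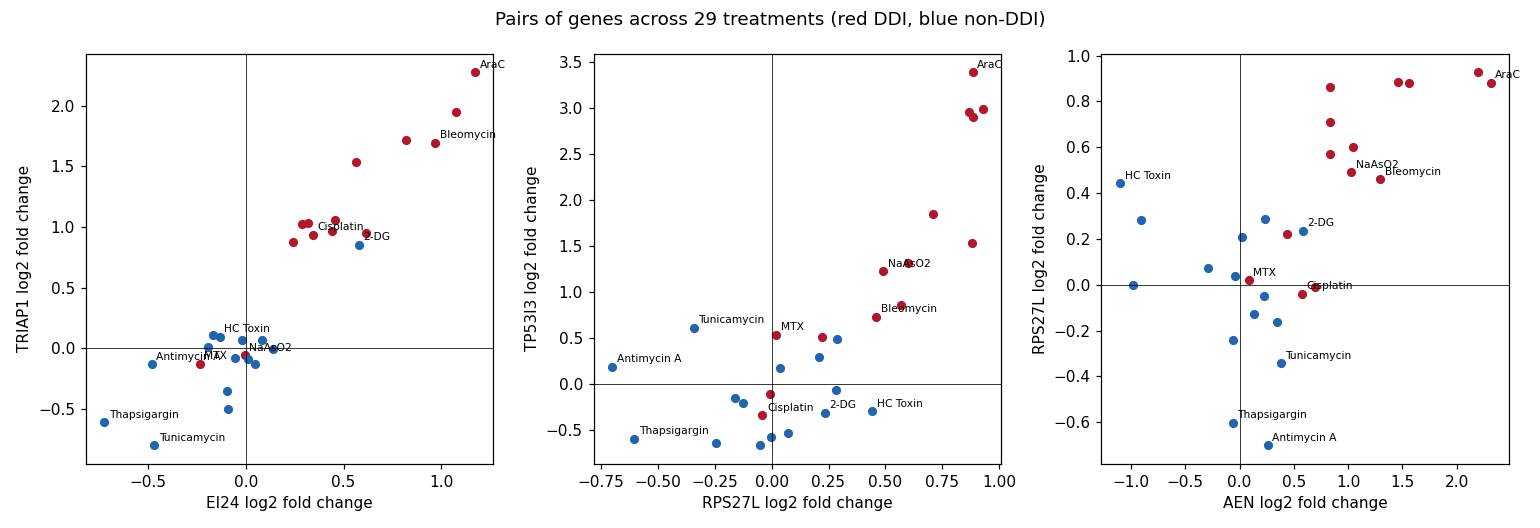
Log2 fold changes of 3 pairs of genes over the 29 treatments, each point 1 treatment, DDI red and non-DDI blue. EI24 and TRIAP1 run along 1 line through both classes, while AEN and RPS27L part in the non-DDI treatments, where HC Toxin is low in AEN and highest in RPS27L.

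By the same measure the panel genes most like AEN were PHLDA3, a repressor of Akt signalling (r = 0.93), BLOC1S2 (0.93) and PRKAB1, a subunit of AMPK (0.91). For EI24 they were TRIAP1, FBXO22 (0.92) and FAM123B (0.89), and for TRIAP1 EI24, LCE1E (0.92) and PHLDA3 (0.89). TP53I3 was nearest to DDB2, a sensor of damaged DNA (0.87), LCE1E (0.86) and RRM2B, a p53-induced subunit of ribonucleotide reductase (0.85). RPS27L was nearest to RRM2B (0.81), BTG2, an antiproliferative gene (0.79), and TP53I3 (0.79).

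The 16 other p53 targets of the panel rose in a median of 11 DDI treatments, against 9 for the 5 genes and 8 for all 61. Their median log2 fold change over the DDI treatments was 1.13, against 0.93 for the 5 genes and 0.45 for all 61. PHLDA3 had the largest class difference of the 16, 2.61, and rose in 13 DDI treatments. GADD45A had the smallest, 0.47, and was higher in 9 and lower in 3. With NaAsO2, 15 of the 16 rose against 2 of the 5, and with cisplatin 11 against 2, while none of the 16 passed with MTX. The sign of EI24 and TRIAP1 with NaAsO2 followed the vehicle sample kept. With cisplatin, TP53I3 and RPS27L have the Cq of colchicine in replicate 1. The low counts of the 5 genes with these agents are therefore uncertain. These differences between the lists were not tested.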

How the data were processed

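Cq values of 61 genes, HPRT1 and GUSB in 76 samples were deposited; per the labels and methods, the authors made them by TaqMan RT-qPCR on custom array plates from RNA of TK6 cells exposed on separate occasions. AEN had more than 1 assay on the plate, and the authors kept 1 by how well the biomarker performed. A file of the authors' own fold changes was not used. Vehicles were taken from the labels.

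Levels (HPRT1 and GUSB mean Cq minus gene Cq) entered a limma fit (limma 3.58.1, R 4.3.3) that had 1 coefficient for each of 38 conditions, and each treatment was set against its vehicle, adjusted by Benjamini-Hochberg over 61 genes (threshold 0.05). Fitting all samples gives 1 spread per gene to all conditions. Classes were compared with limma on 29 mean profiles, without allowance for the vehicle samples that profiles share. The depth of a Cq is unknown, and 2 replicates limit the precision. On simulated data of 61 genes, 42.4% of log2 changes of 0.5, 85.2% of 1 and 95.1% of 2 were called in a treatment against its vehicle, and 0.776% of unchanged genes. The simulated noise was independent between genes and samples, so these rates do not cover a shift shared by the genes of a sample.

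The genes and lists were chosen with earlier results of these data known. Named were the 5 genes in every treatment, with their 3 highest and 3 lowest, the 3 panel genes most like each, and the highest and lowest of the other p53 targets. Promoters came from RefSeq (GRCh38.p14). The methods state that agent and solvent were exposed together on each occasion, so replicate numbers were taken to pair samples and fitted as a block in an alternative. Deviations of same-numbered treated and vehicle samples correlated at a median of 0.24 (−0.72 to 0.91), over 0.1 in 19 of 29 treatments and under −0.1 in 7. Alternatives were the reference genes, the vehicle, left-out replicates or treatments, the adjustment, the samples fitted and the block.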

Additional observations from a re-analysis of the deposited data

How the results depend on the processing

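Over 1635 values of a gene and treatment under the alternatives, 1467 stayed on their side of the threshold, 99 lost and 48 gained a call with the sign kept, and 21 changed sign with a call in at least 1 of the fits. Of the 1467, 124 changed sign without a call in either fit. Of the 61 calls of the 5 genes over both classes, 43 held in each of the 4 fits that left out 1 sample, and 4 were lost in all of them. With the panel median as reference, which shifts the median gene by −0.44 over DDI and 0.07 over non-DDI treatments, K2CrO4 read −0.24 in AEN and −0.055 in EI24, bleomycin −0.05 in EI24 and AraC −0.11 in RPS27L. EI24 then had 0 DDI treatments called higher and RPS27L 1, the 5 genes together 32 higher and 2 lower over DDI and 1 higher and 5 lower over non-DDI treatments, the class difference was 0.10 in EI24 and 0.069 in RPS27L, and the H2O vehicle differed by −0.037 in AEN, −0.14 in EI24 and 0.056 in RPS27L. With GUSB alone, EI24 read 0.38 with NaAsO2 (adjusted p = 0.047, limma) and the H2O vehicle difference of RPS27L was −0.37 (adjusted p = 0.078). Against the mean of all vehicles, K2CrO4 read −0.14 in AEN, −0.049 in EI24 and −0.039 in TRIAP1, CdCl2 −0.37 in EI24, and 2-DG −0.082 in EI24 and −0.14 in TRIAP1, 5 non-DDI pairs were higher, and the class difference of RPS27L was 0.30 (adjusted p = 0.098). Against the 8 other vehicles, K2CrO4 read −0.21, −0.13 and −0.16 in AEN, EI24 and TRIAP1, 2-DG −0.059, −0.16 and −0.26, and CdCl2 −0.46 in EI24 and −0.088 in TRIAP1, with 5 DDI calls higher in EI24 and 0 non-DDI calls higher. Within DMSO the class difference of RPS27L was 0.44. Repeated Cq values lay in the samples or in the vehicle of 19 treatments, and leaving these out left 9 DDI agents against 2-DG alone. The class differences were then 0.58 in AEN, −0.031 in EI24, 1.61 in TP53I3, 0.29 in TRIAP1 and 0.26 in RPS27L. With 1 non-DDI agent left, the spread of that class cannot be read. Chosen after seeing the data, leaving out the 6 treatments tied to those repeats most directly, MTX with NaAsO2, or AraC with hydroxyurea kept all 5 class calls. Apart from the settings named, the cause of a change was not tested.

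With 1 of 2 replicates left out, DDI treatments called higher ranged from 11 to 12 in AEN, 4 to 7 in EI24, 11 to 13 in TRIAP1 and 6 to 9 in RPS27L and were 8 in TP53I3 each time, pooled calls from 42 to 48 over DDI, and over non-DDI from 1 to 3 higher and 5 to 7 lower. The lone sample is assumed to vary like the other conditions. NaAsO2 ranged from −0.48 without vehicle replicate 1 to 0.47 without vehicle replicate 2 in EI24, and from −0.73 to 0.62 in TRIAP1. The H2O vehicle difference of RPS27L ranged from −0.83 to −0.27. With a replicate block, pooled calls were 52 higher over DDI and 3 higher and 11 lower over non-DDI treatments, and the gains were EI24 with etoposide, cisplatin, antimycin A and tunicamycin and TRIAP1 with EtOH at 2%. The block changed no other call of these genes.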
